A study of Mus musculus with 7 samples.

Results

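The small leucine-rich proteoglycans are secreted matrix proteins with a core of leucine-rich repeats, most of which carry sugar chains. The genes described are Bgn, Dcn, Lum, Fmod, Kera, Ogn, Prelp, Aspn and Omd, 9 of 18193 genes measured in mouse plantaris muscle. They were taken by symbol, through every probe set that the platform annotation gives to 1 of these symbols alone (20 probe sets). For each gene the probe set whose log2 signal was highest on average over the 7 arrays stands for the gene. That choice uses no comparison between groups. The plantaris is a calf muscle. All mice were Pax7-DTA animals, 4 months old, bred from the parental strains Pax7-CreER and Rosa26-DTA, so vehicle and tamoxifen groups carried the same alleles. Tamoxifen activates a Cre recombinase driven by the Pax7 locus, which switches on diphtheria toxin A in satellite cells, the stem cells of muscle; vehicle leaves them in place. The plantaris was either sham operated or carried an overload for 1 week after synergist ablation, the removal of the muscles that share its work. The groups were vehicle sham (1 male array), tamoxifen sham (1 male array), vehicle overload (2 arrays, 1 female and 1 male) and tamoxifen overload (3 arrays, 1 female and 2 male). The titles describe single mice, whereas the design text speaks of pooled right and left muscles and of 11 animals. It is therefore uncertain how many animals stand behind an array, and p-values measure the spread between these arrays. Mice that received tamoxifen without the transgenes were not analysed here, so the drug and the loss of satellite cells cannot be told apart.

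As background, proteins of this family bind collagen fibrils and set how thick they grow and how they are spaced. Several also hold growth factors of the TGF-beta family in the matrix or signal to cells after release from it. In muscle they are made mainly by connective tissue cells of the endomysium, perimysium and tendon. Class I comprises decorin (Dcn), biglycan (Bgn) and asporin (Aspn). Class II comprises lumican (Lum), fibromodulin (Fmod), keratocan (Kera), Prelp and osteomodulin (Omd), and class III includes osteoglycin (Ogn, also called mimecan).

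Most of the genes lie in clusters. In the RefSeq annotation of GRCm38.p6, Dcn, Lum and Kera are followed by Epyc on chromosome 10 with 0 other protein-coding genes between them. On chromosome 13 the order is Ecm2, Aspn, Omd, Ogn, and on chromosome 1 it is Optc, Prelp, Fmod, again with 0 protein-coding genes between neighbours. Bgn stands alone on the X chromosome. RefSeq promoter windows were matched for 7 of the 9 genes. The 250 bases before the start site are printed for Bgn and Aspn, whose levels moved most alike, for Omd and Ogn, the neighbours of Aspn that moved less, and for Fmod, which did not pass the test. All are on the plus strand of GRCm38.p6, at chrX:73483351-73483600 (Bgn), chr13:49544193-49544442 (Aspn), chr13:49582212-49582461 (Omd), chr13:49607765-49608014 (Ogn) and chr1:134037004-134037253 (Fmod). Capitals mark matches on either strand to a TATA box (TATAAA), an AP-1 site (TGANTCA), a TEAD site (GGAATG) or a SMAD element (CAGAC).
Bgn: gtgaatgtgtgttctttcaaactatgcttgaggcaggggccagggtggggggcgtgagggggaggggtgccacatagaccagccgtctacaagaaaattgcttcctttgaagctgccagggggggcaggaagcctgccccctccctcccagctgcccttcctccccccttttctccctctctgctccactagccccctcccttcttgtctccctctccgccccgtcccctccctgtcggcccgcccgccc
Aspn: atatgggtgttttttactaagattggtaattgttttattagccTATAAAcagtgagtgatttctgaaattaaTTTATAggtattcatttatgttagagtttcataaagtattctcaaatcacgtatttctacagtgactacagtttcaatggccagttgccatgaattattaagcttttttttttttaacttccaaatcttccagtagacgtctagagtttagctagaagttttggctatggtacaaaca
Omd: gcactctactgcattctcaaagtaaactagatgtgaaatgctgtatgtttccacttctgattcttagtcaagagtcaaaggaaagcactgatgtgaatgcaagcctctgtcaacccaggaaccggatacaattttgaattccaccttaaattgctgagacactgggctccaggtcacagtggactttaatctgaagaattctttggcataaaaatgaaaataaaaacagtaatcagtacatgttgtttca
Ogn: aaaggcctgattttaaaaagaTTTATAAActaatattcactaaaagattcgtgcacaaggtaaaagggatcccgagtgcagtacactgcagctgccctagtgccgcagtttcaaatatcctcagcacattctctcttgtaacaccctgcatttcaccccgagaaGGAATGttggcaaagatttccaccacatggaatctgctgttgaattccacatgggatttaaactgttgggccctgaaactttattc
Fmod: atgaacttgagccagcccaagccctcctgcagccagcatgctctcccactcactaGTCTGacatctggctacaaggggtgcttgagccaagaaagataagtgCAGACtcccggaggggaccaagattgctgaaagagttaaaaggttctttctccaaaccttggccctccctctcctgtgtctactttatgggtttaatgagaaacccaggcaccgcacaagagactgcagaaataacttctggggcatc
The sequences of Bgn and Aspn differed widely in base composition. The Bgn window had 64.4% G and C and 7 CG dinucleotides, the Aspn window 30.0% and 2. Of 32851 RefSeq promoter windows cut in the same way, 81.6% had a lower share of G and C than Bgn and 1.47% had a lower share than Aspn. The Aspn window held 2 TATAAA matches, 207 and 178 bases before the start (12.4% of all windows hold at least 1). The Ogn window held 2 overlapping ones, beginning 229 and 227 bases before the start, and 1 GGAATG match (12.6% of all windows). The Fmod window held 2 CAGAC matches (42.2% of all windows), and TGANTCA, which 6.75% of all windows hold, had 0 matches in the 5 windows. A match of letters describes the sequence and is not evidence of binding.

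Deposited values are signals on a linear scale, with the same trimmed mean on each array, so a difference is relative to the total of the array. Background was set at a signal of 53.6, below which lay the mean levels of 95% of 77 genes for smell, taste and pheromone receptors. Each of the 9 genes lay above it on all 7 arrays. The 10 muscle fibre markers did so too. Pax7, the gene whose locus drives the Cre, had signals of 92.8 on the vehicle sham array, 41.2 on the tamoxifen sham array, 274 and 349 with vehicle overload, and 120.4, 57.9 and 9.97 with tamoxifen overload. The difference between the overload groups did not pass the test (log2 difference -2.67 ± 0.81, SE; adjusted p = 0.399 by limma). In whole muscle, fewer cells of a type and less RNA per cell cannot be told apart.

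One week of overload raised 5 of the 9 genes, Bgn, Aspn, Lum, Kera and Ogn, whereas Dcn, Fmod, Omd and Prelp did not pass the test. By limma, with the overload differences of the 2 treatments averaged (5 against 2 arrays), 14.7% of all genes were called higher and 8.16% lower (22.9% in either direction) at a Benjamini-Hochberg adjusted p under 0.05. The median log2 difference was 1.02 over the 9 genes and 0.07 over all genes. The same 5 genes had every overload array above both sham arrays, as did 23.1% of all genes. The 5 rising genes kept a positive difference in all 90 fits with another processing or with an array left out (18 for each gene) and passed the test in 83 of them. When variances were not allowed to follow signal intensity, none of the 5 passed (adjusted p from 0.0574 to 0.0878), and neither did any other gene.

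**Figure D1:**
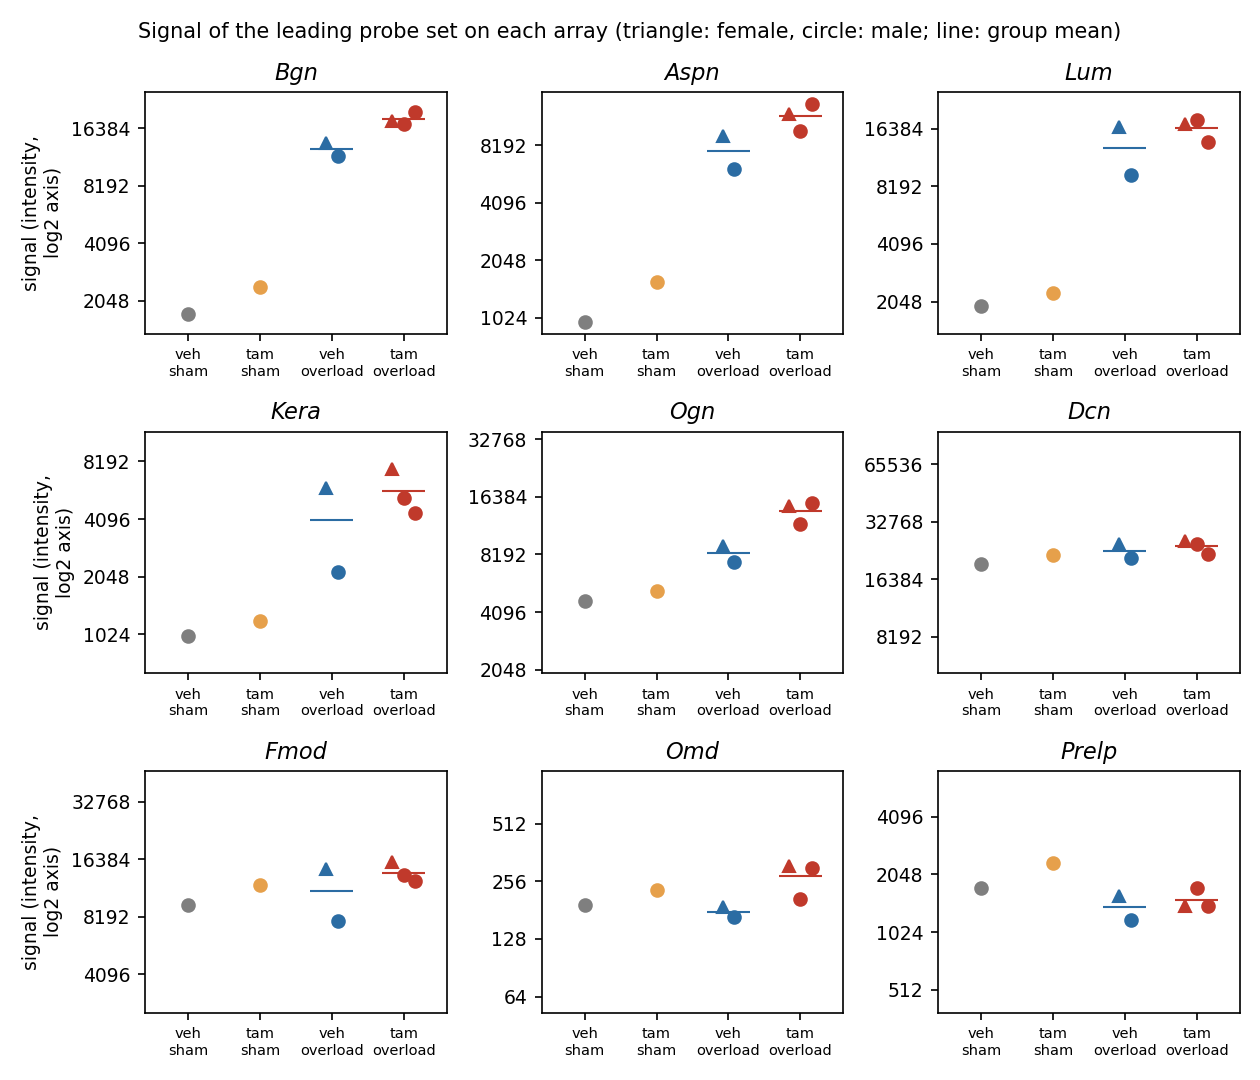
Signal of the leading probe set of each gene (log2 axis, intensity) on the 7 arrays, by group, with triangles for female and circles for male arrays and a line at the mean of each overload group. Bgn, Aspn, Lum, Kera and Ogn lay higher on all 5 overload arrays than on both sham arrays, and every panel spans at least the same fold range.

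Among class I genes, biglycan and asporin rose together and decorin did not pass. Bgn, which binds collagen and can signal through Toll-like receptors when freed from the matrix, had a signal of 1748 with vehicle sham and 2424 with tamoxifen sham. It reached 13720.0 (female) and 11649.8 (male) with vehicle overload, and 17805 (female), 17184 and 19896 (males) with tamoxifen overload. No overload array came near the sham arrays. The log2 difference was 2.85 ± 0.15 (SE), or 7.23-fold (adjusted p = 5.36e-05 by limma), and 1.29% of all genes had a larger rise. All 3 Bgn probe sets were called, with differences from 2.85 to 3.08.

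Aspn encodes asporin, which binds collagen and TGF-beta through a core with a stretch of aspartate residues. Its signal was 980.4 and 1576 on the vehicle and tamoxifen sham arrays. It was 9125 and 6167 on the female and male vehicle overload arrays, and 11938, 9712.5 and 13420.5 on the female and the 2 male tamoxifen overload arrays. The groups did not overlap, and the log2 difference was 2.79 ± 0.19, or 6.92-fold (adjusted p = 0.000133 by limma). Its second probe set gave 2.68.

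Dcn, decorin, which binds collagen and TGF-beta, had signals of 19735 and 22017 with sham. Overload arrays had 25138 and 21165 with vehicle, and 26051, 25214 and 22145 with tamoxifen, so the male vehicle overload array lay within the sham range. The log2 difference was 0.11 (95% interval -0.27 to 0.49; adjusted p = 0.699 by limma), an interval that lies below the rises of Bgn and Aspn. The Dcn signal stood between the 99.4th and 99.9th percentile of all probe sets of an array, and the response of the arrays at such signals was not tested. A second, dimmer Dcn probe set, with signals from 222 to 482, gave 0.43 and did not pass either (adjusted p = 0.261 by limma over all probe sets).

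Class II genes split more widely. Lum, lumican, which limits the fusion of collagen fibrils, had a signal of 1937 and 2273 with sham. It was 16756 (female) and 9392 (male) with vehicle overload and 17374 (female), 18310.4 and 13989.8 (males) with tamoxifen overload. The lowest overload array was thus far above both sham arrays, with a log2 difference of 2.60 ± 0.21, or 6.05-fold (adjusted p = 0.000248 by limma).

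Kera, keratocan, known from cornea and tendon, had a signal of 1001 and 1196 with sham. With vehicle overload it was 5937 on the female and 2164 on the male array, and with tamoxifen overload 7501 on the female and 5267 and 4387 on the male arrays. All 5 values exceeded sham, but they spread more than those of Bgn or Aspn. The log2 difference, with sex in the model, was 1.62 ± 0.20, or 3.07-fold (adjusted p = 0.00133 by limma). Without a sex term it came to 2.03.

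Fmod, fibromodulin, which binds collagen and steers its crosslinking and is abundant in tendon, had a signal of 9419 and 11954 with sham. Vehicle overload gave 14576 on the female and 7751 on the male array, the highest but one and the lowest of all 7 values. Tamoxifen overload gave 15730.0, 13476 and 12534. The groups overlapped and the log2 difference was -0.03 (95% interval -0.45 to 0.38; adjusted p = 0.923 by limma). Of its 6 probe sets, with differences from -0.08 to 0.41, 0 were called.

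Prelp, which anchors basement membranes to collagen, was the only one of the 9 genes with every overload array below both sham arrays, as for 18.3% of all genes. Its signal was 1741 and 2342 with sham, 1576 and 1178 with vehicle overload and 1402.5, 1736 and 1408 with tamoxifen overload. The male tamoxifen overload array at 1736 was separated from the vehicle sham array by a few units of signal. The log2 difference was -0.53 (95% interval -0.94 to -0.12) and did not pass (adjusted p = 0.0681 by limma). It did pass in 5 of 18 alternatives, among them the fit without a sex term (-0.49) and the male arrays alone (-0.57).

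Omd, osteomodulin, known from bone, had the weakest signal of the 9, 192 and 232 with sham. It was 189 and 166 with vehicle overload and 307, 207 and 302 with tamoxifen overload, so the groups overlapped. The log2 difference was -0.06 (95% interval -0.65 to 0.54; adjusted p = 0.909 by limma).

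Ogn, the class III gene, whose product takes part in collagen fibril formation, had a signal of 4655 and 5308 with sham. It was 9127 and 7470.0 with vehicle overload and 14628, 11766 and 15165 with tamoxifen overload, in each case above sham. The log2 difference was 1.02 ± 0.16, or 2.03-fold (adjusted p = 0.0039 by limma), and its other probe set gave 1.14. Without the tamoxifen sham array only the difference within vehicle is left, which was 0.73 for the leading probe set.

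The clusters on chromosomes 13 and 10 did not move as units. On chromosome 13, Aspn and Ogn rose, Omd, which lies between them, did not pass, and their neighbour Ecm2 had a log2 difference of -0.58 ± 0.27 (adjusted p = 0.171). On chromosome 10, Lum and Kera rose next to Dcn, and Epyc was above background on 2 of 7 arrays. On chromosome 1, neither Prelp nor Fmod passed, and Optc was above background on 1 array.

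Because a difference taken within an array does not depend on the scaling of that array, pairs of genes were also compared in this way, with the mean of the sham arrays set to 0 and without a test. Bgn and Aspn changed almost equally, with a difference between -0.16 and 0.19 on the 5 overload arrays against ±0.11 on the sham arrays. Bgn exceeded Dcn by 2.47 to 3.19, and Lum exceeded Dcn by 2.14 to 2.85. On chromosome 13, Aspn gained 2.65 to 3.04 over Omd and 1.71 to 2.00 over Ogn, and Ogn gained 0.93 to 1.27 over Omd. Lum exceeded Fmod by 2.48 to 2.78, a narrow range given that both genes varied among the overload arrays. Kera fell behind Lum on all 5 arrays, by -0.27 to -1.18.

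**Figure D2:**
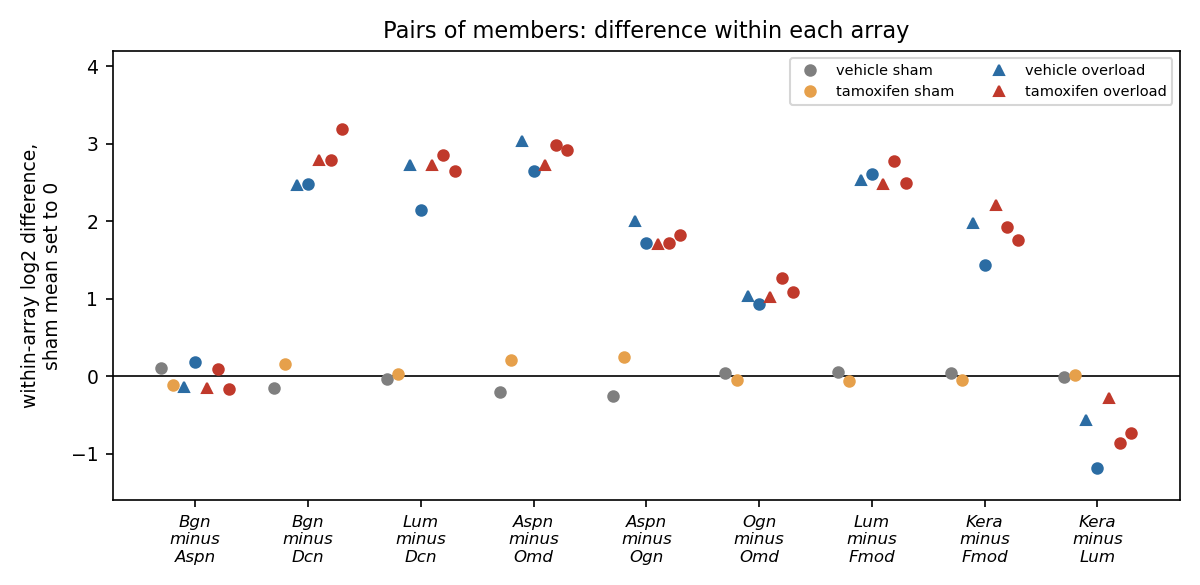
Log2 difference between 2 genes within each array, with the mean of the sham arrays set to 0 (y axis), for 9 pairs and 7 arrays, coloured by group, triangles for female arrays. Bgn minus Aspn stays near 0 on all arrays, whereas Bgn minus Dcn, Lum minus Dcn and Aspn minus Omd lie above 2 on all 5 overload arrays.

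The male vehicle overload array (replicate 2) was the lowest of the 5 overload arrays for all 9 genes, as it was for 24.6% of all genes. These are 9 readings of 1 array, not separate observations. Set against the sham array of the same treatment, the change on this array was 2.74 for Bgn, 2.65 for Aspn, 2.28 for Lum, 1.11 for Kera and 0.68 for Ogn (log2). The female array of the same group gave 2.97, 3.22, 3.11, 2.57 and 0.97. Markers of several cell types moved with it. This array had the lowest summed signal of the 5 overload arrays in 6 of 10 marker lists (fibroblast, tendon, endothelial, pericyte and smooth muscle, adipocyte, Schwann cell). It had the highest in 2, muscle fibre and satellite cell. The margin was small for pericyte and smooth muscle (50568 against 50664 on the next array) and for muscle fibre (334417 against 330982). The summed signal of 10 tendon cell markers outside the family was 23449 on the male vehicle overload array, 39233 to 45337 on the other overload arrays and 12210.6 and 13731 on the sham arrays. The part of these cells in the values of the 9 genes was not tested. When that array was left out, the log2 differences were 2.98 for Bgn, 2.90 for Lum, 1.97 for Kera and 0.24 for Fmod.

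**Figure D3:**
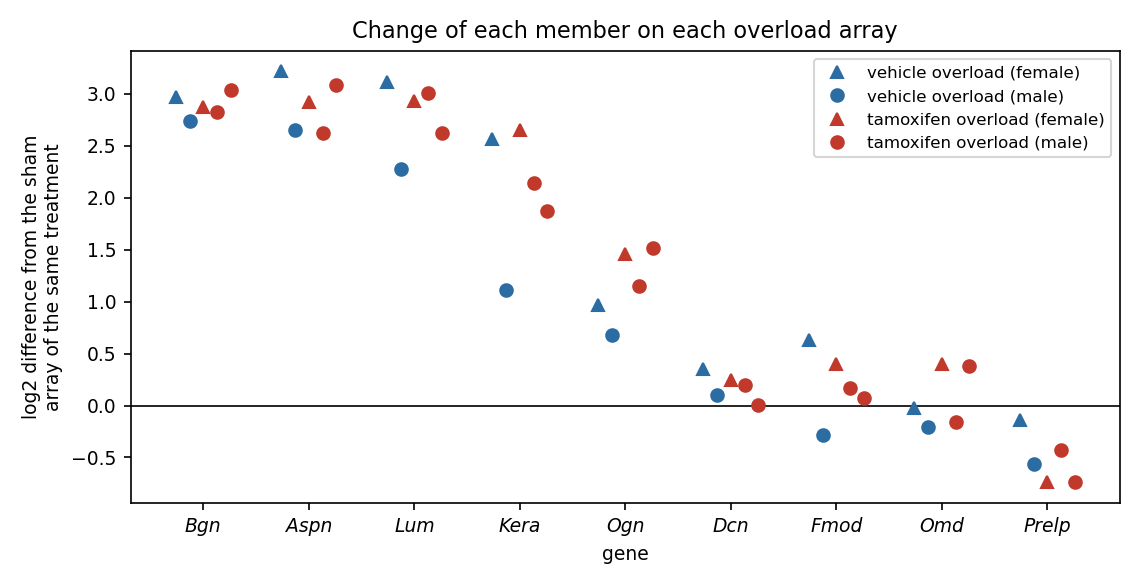
Log2 difference of each overload array from the sham array of the same treatment (y axis) for the 9 genes (x axis), blue for vehicle and red for tamoxifen, triangles for female and circles for male arrays. Bgn lies between 2.74 and 3.04 on the 5 arrays, whereas Kera ranges from 1.11 to 2.65 and Fmod from -0.28 to 0.63.

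Within vehicle, overload raised 4 of the 9 genes and lowered 0 (6.35% of all genes were called higher, 2.44% lower and 8.79% either way). Within tamoxifen it raised 5 and lowered 0 (9.98%, 4.9% and 14.9% of all genes). The rise of Bgn was 2.82 ± 0.22 under vehicle and 2.89 ± 0.20 under tamoxifen, that of Aspn 2.80 ± 0.27 and 2.78 ± 0.25 (limma, log2, SE). Lum rose by 2.48 ± 0.29 and 2.71 ± 0.26, and Kera by 1.34 ± 0.28 and 1.89 ± 0.26. Ogn was 0.73 ± 0.23 with vehicle, which did not pass (adjusted p = 0.0966 by limma), and rose by 1.31 ± 0.21 with tamoxifen (adjusted p = 0.00661). The vehicle value of Ogn passed without the sex term and without tamoxifen overload replicate 1 or 2. The other Ogn probe set passed with vehicle (1.04; adjusted p = 0.0443 by limma over all probe sets) and gave 1.245 with tamoxifen. The call of Ogn within vehicle therefore depended on the probe set. Kera with vehicle (adjusted p = 0.0272) lost its call without a sex term (0.0581) and with each array centred on its median (0.0774). Each sham side is a single array that is assumed to vary like the overload arrays.

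The change with overload was then compared between treatments. Of the 9 genes, 0 had an interaction that passed the test, as had 0% of all genes (limma; 0 of the 9 genes and 1021 of all genes had an unadjusted p under 0.05). The interaction ranged from -0.27 ± 0.33 for Prelp to 0.58 ± 0.30 for Ogn, with 0.55 ± 0.36 for Kera. At the other Ogn probe set the interaction was 0.21. For Bgn its 95% interval was -0.57 to 0.71 and for Aspn -0.81 to 0.79. Changes of up to these sizes between the treatments were not detectable with 7 arrays.

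In overloaded muscle the 9 genes all had higher estimates with tamoxifen than with vehicle, but 0 passed (3 against 2 arrays; 0% of all genes were called by limma). The median log2 difference was 0.54 over the 9 genes and 0.03 over all genes. The share of all genes with a higher estimate was not counted, so nothing is concluded from the common direction. An unadjusted p under 0.05 was seen for 6 of the 9 and for 1932 of all genes. The largest differences were in Kera (0.80 ± 0.20; adjusted p = 0.378), Ogn (0.77 ± 0.16; adjusted p = 0.378) and Aspn (0.67 ± 0.19; adjusted p = 0.392). Omd stood at 0.64, Bgn at 0.54, Fmod at 0.47, Lum at 0.46, Prelp at 0.16 and Dcn at 0.11. For Bgn, Aspn, Ogn and Omd every tamoxifen array lay above both vehicle arrays, as for 16.9% of all genes. Ogn passed without tamoxifen overload replicate 1 (0.85; adjusted p = 0.0238). Without the male vehicle overload array, Kera came to 0.34, Lum to 0.05, Fmod to 0.11 and Prelp to -0.17. In that fit the vehicle overload side is the female array alone.

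The 2 sham arrays differed in the same direction. Tamoxifen sham exceeded vehicle sham for all 9 genes, by 0.68 for Aspn, 0.47 for Bgn, 0.43 for Prelp, 0.34 for Fmod, and between 0.16 and 0.27 for Dcn, Ogn, Lum, Kera and Omd (log2). The median over all genes was 0.03. With 1 array a group there is no test. A larger positive difference was seen in 15.98% of all genes for Aspn, 22.3% for Bgn and 39.3% for Dcn, the shares of the other 6 genes lying between those of Bgn and Dcn.

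**Figure D4:**
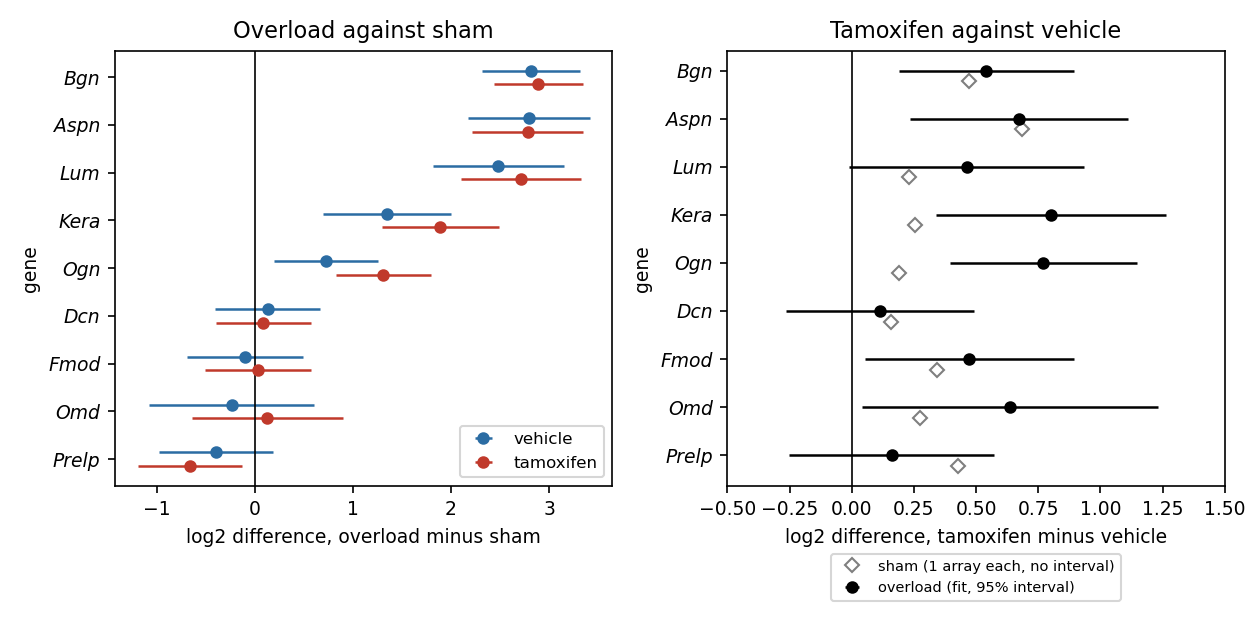
Left, fitted log2 difference of overload from sham (x axis) with its 95% interval for the 9 genes, in blue with vehicle and red with tamoxifen; right, tamoxifen minus vehicle in overloaded muscle (black, 95% interval) and between the single sham arrays (open diamonds). The intervals of Bgn, Aspn, Lum, Kera and Ogn lie above 0 for both treatments (Ogn with vehicle did not pass after adjustment), and every point on the right is above 0, although none of the black ones passed after adjustment.

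Sex was in the model because both sham arrays were male. In overloaded muscle, Kera had the largest estimate of female over male among the 9 genes (0.99 ± 0.20; unadjusted p = 0.00113, adjusted p = 0.616 by limma), followed by Fmod (0.55 ± 0.18) and Lum (0.43 ± 0.21). None passed, whereas 0.0495% of all genes did (0.033% higher and 0.0165% lower in females). Both female arrays exceeded the male arrays of their own treatment for 4 of the 9 genes, Kera, Fmod, Dcn and Omd. The share of all genes with this order was not counted, so nothing is concluded from the 4. Kera passed without tamoxifen overload replicate 1 (1.11; adjusted p = 0.0114). With 2 female arrays, 1 of them beside the low male vehicle array, sex and the single arrays cannot be told apart.

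The genes that most resembled each member were sought by the root mean square difference between log2 profiles, each centred on its own mean over the 7 arrays. Bgn lay closest to Mfap2, a microfibril protein (0.0972), and Aspn to Lox, the lysyl oxidase that crosslinks collagen (0.0918), then to Mfap2 (0.129). Ogn lay closest to Zfp354c (0.0699) and to the elastic fibre gene Fbln5 (0.0912). For Lum the nearest were Angptl1 and Thbs3 (both 0.188), and for Kera they were Zfp185 (0.191) and the tendon gene Tnmd, tenomodulin (0.208). Among the 9 genes the closest pair was Bgn and Aspn (0.137). The 7 arrays share the step from sham to overload, which is part of each distance. Dcn lay nearest to Tgfbr1 (0.0536) and Prelp to Ipmk (0.0765); Fmod and Omd lay nearest to Nfat5 (0.105) and Zfp467 (0.0986).

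Genes that build and modify the sugar chains were followed as lists, whose counts stand beside the 14.7% of all genes called higher and 8.16% called lower. Of 26 genes of the linkage region and of chondroitin and dermatan sulfate synthesis, 13 were called higher with overload and 0 lower (median log2 difference 1.04, against 0.07 for all genes). Dse, the epimerase that makes dermatan sulfate, rose from 74.8 and 112 with sham to between 419 and 1095 (2.65 ± 0.34; adjusted p = 0.00151 by limma). Csgalnact1, which starts the chondroitin chain, rose by 1.59 ± 0.32. Chsy3, a chondroitin synthase below background in sham, was at least 1.82-fold higher, and Chst13 was called but lay below background on every array. Of 9 keratan sulfate genes 3 were higher and 0 lower (median 0.60), namely Chst2 (1.14), B4galt1 (1.00) and B3gnt2 (0.79). Chst2 lay below background on the tamoxifen sham array (48.3).

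Among other members of the family, 7 were measured and 0 rose. Chad, chondroadherin, fell by 0.74 on the log2 scale (adjusted p = 0.0302 by limma), from 1819 and 2523 with sham to between 898 and 1863 with overload, where the vehicle sham array lay within the overload range. Of 19 large and cell surface proteoglycans, 11 rose and 0 fell (median 1.00). Vcan, the large hyaluronan-binding versican, rose by 2.52 ± 0.24, Col18a1 by 2.31, Sdc2 by 1.91 and Sdc1 by 1.87.

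All 15 measured collagens and collagen-processing genes that act with the family rose (median 2.49), led by Col5a2 (3.39), Tll1 (at least 2.59-fold, from below background in sham), Col14a1 (3.21) and Col5a1 (3.08). Of 14 proteases known to cut these proteins, 8 rose and 0 fell (median 1.92). Mmp13 was at least 20.1-fold and Mmp12 at least 2.42-fold higher, Mmp14 rose by 3.45 and Mmp3 by 3.34. Mmp3 lay below background on the vehicle sham array (27.1), and its difference was 4.38 with vehicle and 2.30 with tamoxifen. Of 26 interacting growth factors and receptors, 11 rose (42.3%) and 2 fell (7.69%, near the share of all genes; median 0.23). Ccn4, a matricellular protein that binds decorin and biglycan, rose by 3.84 ± 0.31, Tgfb1 by 2.01, the Toll-like receptor Tlr2 by 1.80 and Tgfbr2 by 1.49. Ccn4 lay below background on the tamoxifen sham array (35.8), and its difference was 2.77 with vehicle and 4.92 with tamoxifen. The 2 that fell, named here after their values were seen, were Sgca (-0.60) and Kdr (-0.75).

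Markers of some other cell types rose as well, and those of others mostly did not. Outside the family, 15 markers of fibroblasts and of fibro-adipogenic progenitors were measured, of which 9 rose and 1 fell (median 0.85). The largest rises were in Pdgfrl (2.97), Mfap5 (2.43), Pi16 (2.31) and Fap (2.08). Pdgfra, the receptor that defines these progenitors, was 0.88 ± 0.13, and Gsn, gelsolin, fell by 0.79 on the log2 scale; both are named after their values were seen. Of 10 tendon cell markers 7 rose and 0 fell (median 1.09), and all 10 macrophage markers rose (median 2.24). The summed signal of the fibroblast markers overlapped between the groups, from 48851 to 54236 in sham and from 54136 to 65339.9 in overload. Gsn, the marker that fell, made up most of the sham sum. With Gsn left out after its values were seen, the sum of the other 14 was 12286.8 to 16087.5 in sham and 30798 to 41692 in overload. Leaving out the falling marker favours such a separation, so nothing is concluded from it. The summed signal of all 10 macrophage markers did not overlap between the groups, from 4361 to 7148 in sham and from 19984 to 33856 in overload. Of 9 cartilage and bone markers, 2 were above background on all arrays, 2 on none, and 3 were called higher. Of 8 endothelial markers 2 were higher (25%) and 1 lower (12.5%), and of 8 satellite cell markers 2 (25%) and 0. Of 9 pericyte and smooth muscle markers 1 was higher (11.1%) and 0 lower (median -0.17). Over all genes 14.7% were called higher and 8.16% lower, so these small counts say little about the cell types. Of 6 adipocyte markers 0 were higher and 3 lower (median -1.12), and of 4 Schwann cell markers 0 and 1. Of 10 muscle fibre markers 0 were called in either direction (median -0.33). Their summed signal was nevertheless lower on every overload array (261366 to 334417) than on both sham arrays (375288 to 399990). The part of these cells was not tested.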

How the data were processed

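Plantaris RNA (1 µg per array) was measured on 7 Affymetrix Mouse 430 2.0 arrays, per the labels. The authors deposited linear intensities, scaled array by array: the mean after dropping the lowest and highest 2% is 500.003 on each (median signal 88.2 to 127.7). The submitters' processing notes name Partek; the summary method for probe sets is not given. The number of arrays limits the precision.

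Values were taken as log2(value + 1). Of 45101 probe sets, 34945 have 1 symbol (932 several, 9160 none, 64 controls; 34741 symbols matched through the Entrez identifier), giving 18193 genes. All genes were fitted with group and sex terms in limma 3.58.1 in R 4.3.3, with variances moderated along an intensity trend (2 residual and 5.95 prior degrees of freedom). Tests are two-sided, with Benjamini-Hochberg adjustment over all genes and a threshold of 0.05. For a gene below background on both sham arrays the fold is a lower bound, computed against that level. The procedure was tested on simulated data. Named genes are the 9 members, up to 4 called genes with the largest difference in each list, neighbours in the clusters, and the 2 genes nearest in profile; others are marked in the text as named after their values were seen. The members and lists were chosen with earlier results of these data known. Alternatives concerned the sex term, male arrays alone, normalization, pseudocount (16), filtering, choice of probe sets, the intensity trend, the model and each array left out. Where a sham array was left out, the average over treatments was replaced by a fit without an interaction. Its value is the overload difference within the other treatment. Plots used matplotlib 3.10.9 under Python 3.11.15.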

Additional observations from a re-analysis of the deposited data

How the results depend on the processing

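Without the intensity trend 0 members passed for overload against sham, on average and within each treatment; with neither trend nor sex term 5 became 4 on average, 2 passed within vehicle and 3 within tamoxifen. Other settings kept the count of members called within 1.5 times, and leaving out an array gave 4 to 6 on average, 4 to 5 with vehicle, 5 to 6 with tamoxifen, and 0 to 1 for tamoxifen against vehicle and for female against male. The all-gene median shifted by -0.30 with median centring and by -0.13 after quantile normalization.

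The sign of some members that did not pass was not stable. In the 18 alternatives for the average, Fmod changed sign in 6, Omd in 4 and Dcn in 1, whereas Prelp stayed negative (-0.83 to -0.28). On average over treatments Fmod came to 0.19 without the sex term (with or without trend), 0.15 after quantile normalization and 0.087 with the mean of its probe sets, Omd to 0.045 without the sex term (with or without trend), and Dcn to -0.19 with median centring. Within vehicle Fmod came to 0.17, 0.051 and 0.13 under the same settings and Dcn to -0.17 with centring. Within tamoxifen Omd came to -0.13 after quantile normalization, and with centring Omd, Dcn and Fmod came to -0.17, -0.21 and -0.26. Dcn with tamoxifen against vehicle came to -0.025 with centring. With single arrays left out the ranges were -0.11 to 0.24 (Fmod) and -0.24 to 0.12 (Omd) on average, -0.28 to 0.35 (Fmod) and -0.56 to 0.013 (Prelp) within vehicle, -0.078 to 0.12 (Fmod) and -0.066 to 0.34 (Omd) within tamoxifen, and -0.17 to 0.41 for Prelp with tamoxifen against vehicle. In the fits without a sham array, the value on average is the overload difference within the other treatment. Both ends of the Omd range on average are such values. The cause of the changes of sign was not tested. No paired analysis was possible because the titles give no replicate numbers that are shared between groups.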

Other observations

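Of the 9 cartilage and bone markers, the 3 called higher with overload were Dmp1, Col2a1 and Ibsp, chosen here after their values were seen. Dmp1, a mineralised-matrix protein of bone cells, was below background on both sham arrays (39.6 and 41.4) and above it on all 5 overload arrays (161 to 439), at least 5.44-fold higher (adjusted p = 0.000583 by limma). Col2a1, the cartilage collagen, was at least 1.82-fold higher; it was above background on 4 overload arrays and at a signal of 16.3 on the male vehicle overload array. Ibsp lay below background on all 7 arrays. The other 6 markers of the list were not called, and some of them went the other way. Col9a1 had signals of 463 and 370 with sham and 82.3 to 307 with overload. Phex, mostly below background with overload and sham together, had 58.1 and 98.8 with sham and 30.3 to 44.1 with overload. The list as a whole therefore did not move in 1 direction. One Fmod probe set differed from the other 5: its signal was 1882 and 4862 with sham, 7768 and 2158 with vehicle overload, and 7003, 3629 and 11060.5 with tamoxifen overload, a wider spread between arrays of 1 group than in the leading probe set.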
